A study of Mus musculus with 15 samples.

Results

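The 34 genes described here are 27 immediate early genes and 7 heat shock genes, chosen by name from the 53465 genes in the table of normalized counts, and all 34 passed the filter on low values. They were followed across EVP, TA and D, populations of B16-F0 melanomas that the authors describe as endothelial. The melanomas had been grown in CAG-GFP mice, in which a ubiquitous promoter drives GFP, so that GFP marks cells of the host. Tumors were collected at day 15 and digested with enzymes, cells carrying lineage markers were depleted, and GFP+ Lin- CD34+ cells were sorted into EVP (endovascular progenitors, CD31 low and VEGFR2 low), TA (transit amplifying cells, CD31 intermediate and VEGFR2 low) and D (definitive differentiated cells, CD31 high and VEGFR2 high). Each population had 5 libraries. No other treatment, genotype or time point separated the populations, and nothing used here states whether libraries with the same number came from the same animals, so p-values measure the spread between these libraries.

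Immediate early genes are transcribed within minutes of a signal from pre-existing factors such as SRF, the ternary complex factors and CREB, mostly downstream of MAP kinases, and many of their short-lived products are transcription factors or feedback inhibitors of the same kinases. Heat shock genes encode chaperones that keep proteins folded and are induced through HSF1 when unfolded protein accumulates. In endothelium, growth factors and shear stress are known inducers of the former, and both kinds of gene are also known to respond to the digestion and sorting of tissue, which every library went through, so that levels in the tumor and levels after handling cannot be told apart.

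The shallowest library, EVP replicate 1, held 5394356 reads on genes and the deepest, D replicate 5, 26513073 (median 19049194). A normalized count is the number of reads of a gene divided by the size factor of its library. Summed over 12 pan-endothelial marker genes, normalized counts were 2429 to 4557 in EVP, 6175 to 79337 in TA and 110813 to 175922 in D, whereas 10 fibroblast markers summed to 863257 to 1551220, 196598 to 619562 and 1145 to 4261, and no marker was at 0 in all libraries of a population. Melanoma markers (6 genes) summed to 29156 to 66912 in EVP, 68699 to 175253 in TA and 18070 to 47749 in D, and leukocyte markers (9 genes) to 2214 to 11246, 7155 to 42406 and 3159 to 9592. Keratinocyte markers (5 genes) summed to 1041 to 5832 in EVP, 802 to 70203 in TA and 51.1 to 1882 in D, with the highest sum in TA replicate 2. Mural markers (8 genes) summed to 5163 to 28611, 5431 to 144686 and 5021 to 10753. The fibroblast sum exceeded the pan-endothelial sum in every EVP and TA library and in no D library. The sums by themselves thus do not bear out the name endothelial for EVP and TA, although the pan-endothelial sum of every TA library exceeded that of every EVP library. They are sums of different genes and do not give shares of cells. The paper rests the endothelial origin on lineage tracing in other mice, where most Lin- CD34+ tumor cells carried a label driven by *Cdh5*. Marker sums do not test that origin. These markers moved with the populations compared below, and their part in the differences of immediate early and heat shock genes was not tested. In bulk libraries, fewer cells expressing a gene and less RNA per cell cannot be told apart. Over all 25549 genes tested, the median log2 fold change was 0.46 for EVP over D, 0.09 for EVP over TA and 0.24 for TA over D, and quantile normalization moved these medians to -0.05, 0.01 and -0.10, so the changes of members below are to be read against these shifts. The share of calls that were higher in EVP than in D was 60.8% and became 49.2% after quantile normalization, and the share higher in EVP than in TA was 44.6% and became 24.9% when libraries were scaled to the same total.

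Promoter sequence was taken from RefSeq (build GRCm38.p6) for the members whose results stand out below. The windows cover bases before an annotated start that lie in no annotated exon. They are shown for *Fos* (chr12:85473640-85473889, plus strand), *Egr2* (chr10:67537619-67537868, plus strand, before a start that lies within the gene), *Gadd45b* (chr10:80929841-80930072, plus strand) and *Gadd45g* (chr13:51846425-51846674, plus strand), which were called higher in EVP than in D, and for the near-identical pair *Hspa1a* (chr17:34972157-34972406, minus strand) and *Hspa1b* (chr17:34959239-34959488, minus strand). Capitals mark a CArG box, the letters bound by SRF (*Egr2*), the core TGACG of the cAMP response element (*Fos* and *Egr2*), a TATA box spelled TATAAA (*Fos*, *Gadd45b* and *Gadd45g*) and the heat shock element pair GAANNTTC (*Hspa1a* and *Hspa1b*).
Fos: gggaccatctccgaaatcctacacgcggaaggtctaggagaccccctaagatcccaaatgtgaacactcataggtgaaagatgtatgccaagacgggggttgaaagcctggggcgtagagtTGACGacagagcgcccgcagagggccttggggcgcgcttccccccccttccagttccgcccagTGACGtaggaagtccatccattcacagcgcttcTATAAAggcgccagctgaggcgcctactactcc
Egr2: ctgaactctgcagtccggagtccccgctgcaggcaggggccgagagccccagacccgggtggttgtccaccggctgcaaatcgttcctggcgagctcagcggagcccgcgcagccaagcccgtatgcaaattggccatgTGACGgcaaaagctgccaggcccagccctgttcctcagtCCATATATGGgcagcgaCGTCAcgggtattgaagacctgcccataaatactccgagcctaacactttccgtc
Gadd45b: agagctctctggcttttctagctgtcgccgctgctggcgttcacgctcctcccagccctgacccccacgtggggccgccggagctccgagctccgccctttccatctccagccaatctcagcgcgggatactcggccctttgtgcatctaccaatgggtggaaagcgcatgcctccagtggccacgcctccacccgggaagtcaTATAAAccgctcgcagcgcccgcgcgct
Gadd45g: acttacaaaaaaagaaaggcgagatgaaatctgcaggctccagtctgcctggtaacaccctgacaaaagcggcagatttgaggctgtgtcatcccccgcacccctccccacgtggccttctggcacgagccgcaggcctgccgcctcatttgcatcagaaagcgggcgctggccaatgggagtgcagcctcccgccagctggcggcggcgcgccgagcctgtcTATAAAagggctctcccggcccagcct
Hspa1a: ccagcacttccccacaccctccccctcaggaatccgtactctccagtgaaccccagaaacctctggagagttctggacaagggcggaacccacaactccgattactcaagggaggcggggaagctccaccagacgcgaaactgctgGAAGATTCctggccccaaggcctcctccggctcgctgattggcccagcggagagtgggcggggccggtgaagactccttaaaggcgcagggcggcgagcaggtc
Hspa1b: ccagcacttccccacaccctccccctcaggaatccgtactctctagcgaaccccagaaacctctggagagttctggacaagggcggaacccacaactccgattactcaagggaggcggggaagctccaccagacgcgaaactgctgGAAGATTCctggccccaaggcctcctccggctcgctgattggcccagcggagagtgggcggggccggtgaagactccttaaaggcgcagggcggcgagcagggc
The *Hspa1a* and *Hspa1b* windows differed at 3 of 250 bases, and the GAANNTTC pair began 104 bases before the start in both. Reads of these paralogs can be split or dropped between them, so their counts are uncertain: over all libraries *Hspa1a* had 62125 reads and *Hspa1b* 3216.

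Over the 250 bases before each start, searched on both strands, 22 of 27 immediate early genes and 5 of 7 heat shock genes had a RefSeq window. *Egr1*, *Egr3*, *Fosl1*, *Ier2*, *Myc*, *Hsp90aa1* and *Hspa8* had none and were not searched. Bases further from the start were not searched for any gene, so letters not found here may lie outside the windows. The core TGACG, which is also contained in every full element TGACGTCA, was found for 12 of the 22 immediate early genes (*Fos*, *Fosb*, *Junb*, *Egr2*, *Atf3*, *Nr4a1*, *Nr4a2*, *Nr4a3*, *Dusp1*, *Dusp5*, *Maff* and *Btg2*) and 2 of the 5 heat shock genes (*Dnajb1* and *Hspb1*), and in 17.8% of all 32851 windows. A CArG box was found for *Egr2*, *Dusp5* and *Zfp36* and in 1.47% of all windows. The pair GAANNTTC was found for *Hspa1a*, *Hspa1b* and *Hspb1* of the heat shock genes and for *Fosl2* and *Jun*, and in 6.69% of all windows. TATAAA was found for *Fos*, *Nr4a2*, *Gadd45b* and *Gadd45g* and in 12.4% of all windows. No member window held the AP-1 site TGANTCA, which 6.75% of all windows held. A gene was counted if any of its windows held the letters, whereas the percentages are per window, so genes with several windows are favoured. *Egr2* had several, and the one at the start of its annotated gene (chr10:67535249-67535474) held none of the marked letters. A match of letters describes the window and is not a binding site.

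Most immediate early genes that were called between EVP and D were higher in EVP, and of the heat shock genes 1 of 7 was called. Of the 27 immediate early genes, 13 were higher in EVP than in D and 4 were higher in D (limma, Benjamini-Hochberg adjusted p under 0.05), where 19.0% of all genes tested were called, with EVP higher in 11.6% and D in 7.46%. Libraries of EVP and D did not overlap for the same 13 genes that were called higher in EVP and for *Dusp6* and *Maff*, which were higher in D, against 17.7% of all genes tested, 10.2% with EVP higher and 7.52% with D higher. The median log2 fold change of the 27 genes, EVP over D, was 1.07, against 0.46 for all genes and 0.19 for genes with a mean of at least 20. Between TA and D, 11 immediate early genes were higher in TA and *Dusp6* was higher in D, where 12.5% of all genes were called, with TA higher in 8.21% and D in 4.31%. Here 8 of the 11 and *Dusp6* did not overlap, against 9.25% of all genes, 5.56% with TA higher and 3.69% with D higher. Between EVP and TA, *Gadd45g* and *Myc* were higher in EVP and *Dusp2* and *Dusp6* higher in TA, where 3.50% of all genes were called, with EVP higher in 1.56% and TA in 1.94%. *Gadd45g*, *Myc* and *Dusp2* did not overlap between EVP and TA, where 4.29% of all genes did not overlap, 2.70% with EVP higher and 1.59% with TA higher. Comparisons with a population in common share its libraries.

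In EVP, the 27 immediate early genes together took 0.920% ± 0.356 (SD, n = 5) of the reads on genes, with 0.634% in the lowest and 1.52% in the highest library. In TA the share was 0.649% ± 0.252 and in D 0.380% ± 0.0335, with 0.437% to 0.935% and 0.343% to 0.415%. Every EVP library was above every D library, and TA overlapped with EVP only. The 7 heat shock genes took 0.227% ± 0.114, 0.255% ± 0.0928 and 0.237% ± 0.0250 in EVP, TA and D, and these ranges overlapped. By mean log2 value, the order EVP, TA, D held for 13 of the 27 immediate early genes, and TA lay between EVP and D for 16 of them and for 6 of the 7 heat shock genes. These are orders of means only, and the same shares over all genes were not computed. None of the 7 heat shock genes was called by limma between EVP and TA or between TA and D, so their order is not established.

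**Figure D1:**
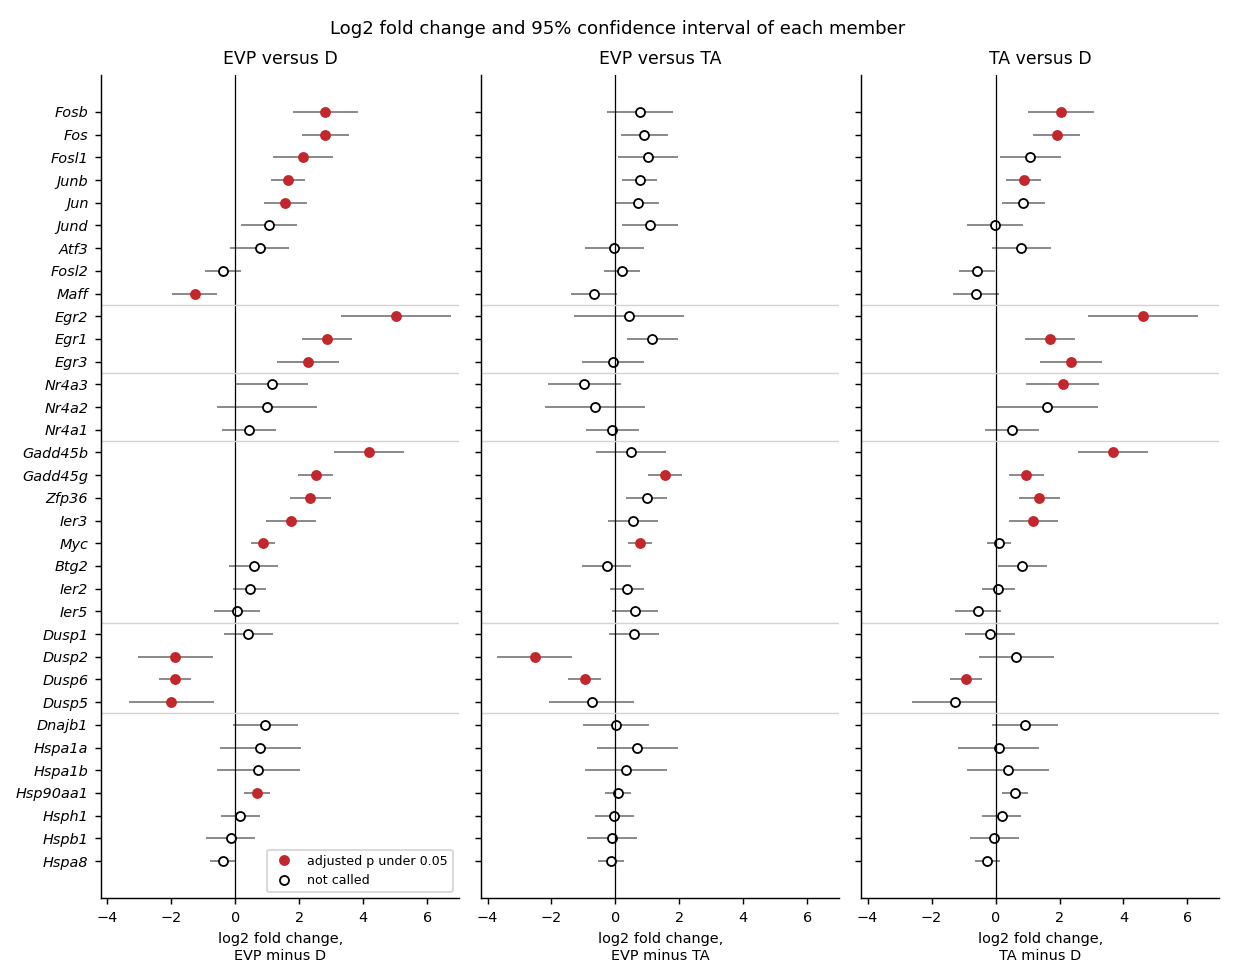
Log2 fold change on the log2(normalized count + 1) scale (horizontal axis) of each member (vertical axis, grouped as AP-1 and related factors, EGR factors, NR4A receptors, other early response genes, MAP kinase phosphatases and heat shock genes) in EVP versus D, EVP versus TA and TA versus D, with 5 libraries per population. Filled points had an adjusted p under 0.05 and lines are 95% confidence intervals. *Egr2* (5.03) and *Gadd45b* (4.17) had the highest values for EVP over D and *Dusp5* (-2.01) the lowest. Of the 7 heat shock genes 1 was called for EVP versus D, where 19.0% of all genes tested were called.

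FOS and JUN family proteins pair with each other as the transcription factor AP-1. *Fos* (chr12:85473890-85477273), the classical serum-response gene, had normalized counts of 22106, 27310, 13741, 47873 and 13041 in EVP replicates 1 to 5, 9566, 22554, 8018, 14116 and 9293 in TA and 3856, 3274, 2100, 4786 and 2399 in D. All EVP and TA libraries were above all D libraries, and EVP and TA overlapped. Mean *Fos* was 7.56-fold higher in EVP than in D (log2 fold change 2.81 ± 0.35 SE, adjusted p = 1.01e-05) and 3.87-fold higher in TA than in D (1.91 ± 0.35, adjusted p = 0.00124). For EVP over TA the log2 fold change was 0.90 ± 0.35 (adjusted p = 0.193).

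*Fosb* (chr7:19302696-19310051) had 2086, 1301, 662, 2784 and 626 normalized counts in EVP, 986, 1031, 297, 1366 and 534 in TA and 246, 173, 114, 361 and 101 in D. Only TA replicate 3, at 297, lay within the range of D among the EVP and TA libraries. *Fosb* was 7.49-fold higher in EVP than in D (log2 fold change 2.81 ± 0.49 SE, adjusted p = 0.000331) and 4.23-fold higher in TA than in D (2.05 ± 0.49, adjusted p = 0.00864).

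*Fosl1* (chr19:5447703-5455945), which encodes FRA-1, had 1022, 495, 1847, 377 and 1406 normalized counts in EVP, 303, 859, 431, 193 and 680 in TA and 279, 264, 168, 163 and 164 in D. EVP and D did not overlap, the lowest EVP library being replicate 4, which was the highest for *Fos*. *Fosl1* was 4.96-fold higher in EVP than in D (log2 fold change 2.11 ± 0.45 SE, adjusted p = 0.00214) and was not called by limma between TA and D (1.09 ± 0.45, adjusted p = 0.136), whereas DESeq2 called it (1.25, adjusted p = 0.0389). Of the exonic bases of *Fosl1*, 1163 of 2033 also lie in exons of *Ccdc85b* on the opposite strand, and whether counting used strand is not given in the sources used here.

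*Jun* (chr4:95049034-95052222) had 12721, 17538, 12216, 38791 and 13816 normalized counts in EVP, 7496, 17188, 6300, 17602 and 9292 in TA and 5671, 5226, 4787, 7675 and 5979 in D. EVP was above D in every library, whereas TA overlapped with both. *Jun* was 3.24-fold higher in EVP than in D (log2 fold change 1.56 ± 0.32 SE, adjusted p = 0.00164). The TA over D value of 0.87 ± 0.32 was not called (adjusted p = 0.0924), and it was called without EVP replicate 4 (adjusted p = 0.0361) or TA replicate 3 (0.0416), after quantile normalization (1.06, adjusted p = 0.0249) and by DESeq2 (0.98, adjusted p = 0.0412). Antisense exons share 232 of its 3189 exonic bases.

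*Junb* (chr8:84974484-84978718) had 14848, 22693, 22984, 33713 and 15410 normalized counts in EVP, 7920, 17120, 8432, 20305 and 12476 in TA and 7265, 7630, 5810, 6486 and 6494 in D. D lay below all other libraries. *Junb* was 3.26-fold higher in EVP than in D (log2 fold change 1.64 ± 0.26 SE, adjusted p = 0.000122) and 1.97-fold higher in TA than in D (0.88 ± 0.26, adjusted p = 0.0301). The TA call was lost without TA replicate 2, 4 or 5 or D replicate 3, 4 or 5, with an adjusted p of at most 0.0817.

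The small MAF factor gene *Maff* (chr15:79347541-79359072), whose product binds DNA but has no transactivation domain, went the other way, with 84.3, 70.5, 120, 149 and 88.5 normalized counts in EVP, 131, 212, 272, 136 and 94.7 in TA and 163, 308, 322, 284 and 177 in D. All EVP libraries were below all D libraries, and TA overlapped with both. *Maff* was 2.44-fold higher in D than in EVP (log2 fold change, EVP over D, -1.28 ± 0.34 SE, adjusted p = 0.0117).

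Limma called none of the remaining genes of this group, *Fosl2*, *Jund* and *Atf3*. *Fosl2* ranged from 781 to 1567 in EVP, 626 to 1762 in TA and 1175 to 2400 in D. *Jund*, at 80.9 to 191, 30.5 to 94.8 and 33.2 to 92.4, gave a log2 fold change of 1.07 ± 0.42 for EVP over D (adjusted p = 0.0904), which DESeq2 called (1.03, adjusted p = 0.0437). Its exon of 1668 bases shares 877 bases with an antisense gene, so its level is uncertain. *Atf3*, a stress-response factor, spanned 989 to 6765 in EVP, 1214 to 3919 in TA and 1017 to 1746 in D.

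EGR proteins are zinc finger factors that are induced by serum and growth factors. *Egr1*, on chromosome 18, had 10070, 9981, 9679, 25597 and 6004 normalized counts in EVP, 4352, 8585, 2160, 8021 and 4201 in TA and 1947, 1262, 1405, 1981 and 1079 in D. Every EVP and TA library exceeded every D library. *Egr1* was 7.99-fold higher in EVP than in D (log2 fold change 2.86 ± 0.37 SE, adjusted p = 1.88e-05) and 3.56-fold higher in TA than in D (1.70 ± 0.37, adjusted p = 0.00499), and EVP over TA was not called by limma (1.16 ± 0.37, adjusted p = 0.109) but was by DESeq2 (1.17, adjusted p = 0.0418).

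*Egr2* (chr10:67535475-67542188) had 1197, 772, 1242, 1245 and 1179 normalized counts in EVP, 781, 438, 670, 1532 and 1128 in TA and 79.6, 0.816, 28.9, 133 and 76.8 in D. The value of D replicate 2 stood for 1 read. D was far below both other populations, which overlapped with each other. Mean *Egr2* was 17.7-fold higher in EVP than in D (log2 fold change 5.03 ± 0.82 SE, adjusted p = 0.000177) and 14.3-fold higher in TA than in D (4.61 ± 0.82, adjusted p = 0.000969). Without D replicate 2, EVP over D fell to 3.97 (adjusted p = 2.26e-06), below the 4.17 of *Gadd45b* over all libraries, and TA over D to 3.55 (adjusted p = 1.755e-05). EVP over TA gave 0.42 ± 0.82 with a 95% confidence interval of -1.31 to 2.14.

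*Egr3* (chr14:70077203-70082614) had 77.2, 96.7, 198, 116 and 155 normalized counts in EVP, 107, 128, 63.6, 238 and 168 in TA and 43.9, 8.98, 32.8, 21.0 and 30.2 in D. As for *Egr2*, D was below every library of EVP and TA. *Egr3* was 4.69-fold higher in EVP than in D (log2 fold change 2.27 ± 0.46 SE, adjusted p = 0.00151) and 5.15-fold higher in TA than in D (2.35 ± 0.46, adjusted p = 0.00227). After quantile normalization neither was called (0.98, adjusted p = 0.470, and 1.44, adjusted p = 0.270).

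**Figure D2:**
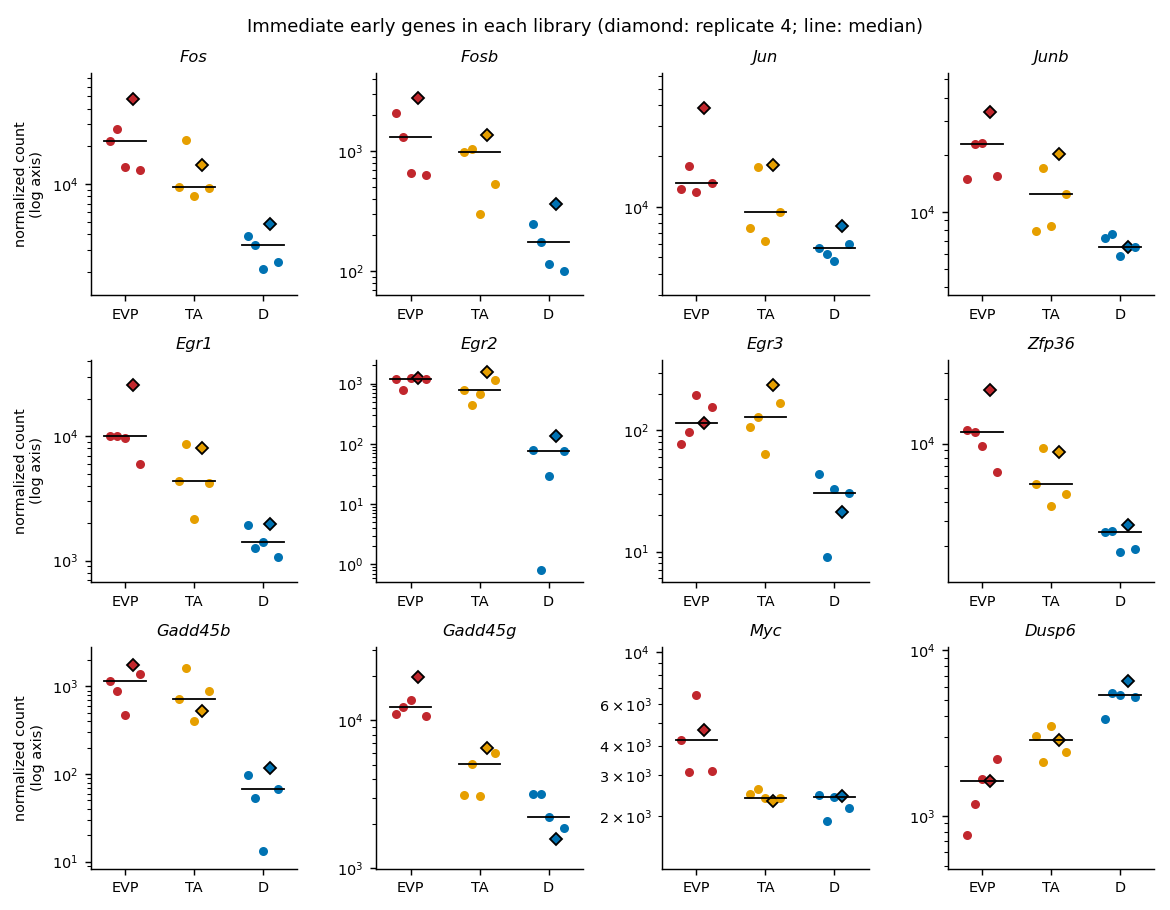
Normalized counts (log axis) of 12 immediate early genes in each of the 5 libraries of EVP, TA and D. Points are libraries, diamonds are replicate 4 and lines are medians. D lay below EVP without overlap for 11 of the genes, and *Dusp6* lay above.

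Among the other early response genes, *Gadd45b* and *Gadd45g* encode small stress-sensing proteins that bind MAP kinase kinase kinases and cell cycle proteins. *Gadd45b* (chr10:80930073-80932204) had 1148, 884, 475, 1766 and 1400 normalized counts in EVP, 726, 1622, 402, 530 and 890 in TA and 98.8, 53.1, 13.3, 119 and 68.3 in D. The highest D library was below the lowest of either other population. *Gadd45b* was 16.1-fold higher in EVP than in D (log2 fold change 4.17 ± 0.52 SE, adjusted p = 1.12e-05) and 11.8-fold higher in TA than in D (3.68 ± 0.52, adjusted p = 0.000122). For EVP over TA the value was 0.48 ± 0.52, with a 95% confidence interval of -0.61 to 1.58.

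*Gadd45g* (chr13:51846678-51848468) had 11109, 12341, 13778, 19604 and 10630 normalized counts in EVP, 3099, 5056, 3064, 6446 and 6004 in TA and 3167, 3181, 2211, 1581 and 1871 in D. EVP stood above both other populations without overlap, and TA and D overlapped. It was 5.62-fold higher in EVP than in D (log2 fold change 2.51 ± 0.25 SE, adjusted p = 1.17e-06), 2.85-fold higher in EVP than in TA (1.55 ± 0.25, adjusted p = 0.00374) and 1.97-fold higher in TA than in D (0.96 ± 0.25, adjusted p = 0.0175). The last call was lost without D replicate 4 (adjusted p = 0.0579) or D replicate 5 (0.0522). *Gadd45g* was the only immediate early gene called between EVP and TA in each fit without 1 library.

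*Zfp36* (chr7:28376784-28380253) encodes tristetraprolin, which binds AU-rich elements of short-lived mRNAs and promotes their decay. It had 12440, 11946, 9600, 23077 and 6410 normalized counts in EVP, 5291, 9312, 3743, 8706 and 4508 in TA and 2503, 2537, 1838, 2786 and 1922 in D. EVP and TA were above D in every library. *Zfp36* was 5.48-fold higher in EVP than in D (log2 fold change 2.34 ± 0.30 SE, adjusted p = 1.44e-05) and 2.72-fold higher in TA than in D (1.37 ± 0.30, adjusted p = 0.00487). EVP over TA was 0.97 ± 0.30 and not called (adjusted p = 0.0884), and it was called without EVP replicate 5 (adjusted p = 0.0293) or TA replicate 2 (0.0484) and by DESeq2 (1.01, adjusted p = 0.0272).

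*Ier3* (chr17:35821684-35822923), a regulator of survival after stress, had 6190, 2837, 1600, 3948 and 4994 normalized counts in EVP, 2379, 4644, 2643, 1274 and 2182 in TA and 1126, 1218, 1192, 1469 and 551 in D. EVP was above D throughout, whereas TA replicate 4 fell within the range of D. *Ier3* was 3.52-fold higher in EVP than in D (log2 fold change 1.74 ± 0.37 SE, adjusted p = 0.00217) and 2.36-fold higher in TA than in D (1.19 ± 0.37, adjusted p = 0.0432). The TA call was lost in 10 of 15 fits without 1 library (EVP replicate 2 or 4, TA replicate 1, 2, 3 or 5, or D replicate 1, 2, 3 or 5), with an adjusted p of up to 0.128, and with no filter on low values (0.0733).

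*Myc* (chr15:61985391-61990374), which drives growth and proliferation, had 4210, 3096, 6563, 4635 and 3126 normalized counts in EVP, 2499, 2620, 2402, 2324 and 2395 in TA and 2463, 1915, 2411, 2445 and 2169 in D. EVP lay above both other populations, which overlapped. *Myc* was 1.90-fold higher in EVP than in D (log2 fold change 0.87 ± 0.18 SE, adjusted p = 0.00171) and 1.77-fold higher in EVP than in TA (0.76 ± 0.18, adjusted p = 0.0246). Without EVP replicate 3 or 4 or TA replicate 3 or 4 the EVP over TA call was lost (adjusted p of at most 0.0655), and scaling to the same total also ended it (0.58, adjusted p = 0.104).

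*Ier2*, *Ier5* and *Btg2*, the last an antiproliferative gene, were not called by limma. *Ier2* ranged from 4810 to 12635 in EVP, 4352 to 9267 in TA and 4818 to 5685 in D. *Ier5* ranged from 200 to 391, 106 to 429 and 199 to 313, and *Btg2* from 1942 to 6442, 2231 to 7271 and 1495 to 3242. Without TA replicate 4, *Ier5* was called lower in TA than in D (log2 fold change -0.89, adjusted p = 0.0479).

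NR4A genes encode orphan nuclear receptors without a known physiological ligand, and of the 3 members *Nr4a3* alone was called. *Nr4a3* (chr4:48045153-48086447) had 165, 19.6, 52.4, 106 and 58.1 normalized counts in EVP, 82.7, 123, 174, 232 and 77.2 in TA and 19.2, 53.9, 43.8, 18.8 and 22.4 in D. TA was above D in every library, whereas EVP overlapped with both. *Nr4a3* was 4.36-fold higher in TA than in D (log2 fold change 2.10 ± 0.54 SE, adjusted p = 0.0150), and after quantile normalization it was not called (1.52, adjusted p = 0.199). EVP over D was 1.13 ± 0.54 (adjusted p = 0.187), and it was called without EVP replicate 2 (adjusted p = 0.0452). *Nr4a1* ranged from 1619 to 8431 in EVP, 2172 to 9372 in TA and 2189 to 3197 in D. *Nr4a2* ranged from 27.4 to 455, 70.3 to 1000 and 54.7 to 98.8. Neither was called by limma, whereas *Nr4a2* was called higher in TA than in D by edgeR (log2 fold change 2.37, adjusted p = 0.0440) and DESeq2 (2.37, adjusted p = 0.00756).

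The dual specificity phosphatases are feedback inhibitors of MAP kinases, and the members of this group that were called were lowest in EVP. This did not hold for all such genes, since *Dusp10* and *Dusp14*, among the other immediate early genes below, were called higher in EVP than in D. *Dusp6* (chr10:99263231-99267489), a cytoplasmic phosphatase of ERK, had 765, 1185, 1670, 1626 and 2217 normalized counts in EVP, 3023, 2110, 3484, 2862 and 2432 in TA and 3829, 5501, 5331, 6541 and 5205 in D. D was above all TA and EVP libraries, and TA and EVP overlapped at TA replicate 2 and EVP replicate 5. *Dusp6* was 3.54-fold higher in D than in EVP (log2 fold change, EVP over D, -1.89 ± 0.24 SE, adjusted p = 1.35e-05), 1.86-fold higher in TA than in EVP (EVP over TA, -0.96 ± 0.24, adjusted p = 0.0332) and 1.90-fold higher in D than in TA (TA over D, -0.93 ± 0.24, adjusted p = 0.0155). The call between EVP and TA was lost without EVP replicate 1, 2, 3 or 4 or TA replicate 1, 3 or 4 (adjusted p of at most 0.0998), with edgeR (0.0545) and with no filter on low values (0.0571), and the call between TA and D without D replicate 4 (0.0506).

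*Dusp2* (chr2:127336159-127338376), a nuclear phosphatase first described in lymphocytes, had 45.6, 15.7, 44.2, 157 and 127 normalized counts in EVP, 241, 573, 453, 382 and 181 in TA and 139, 146, 242, 545 and 170 in D. All TA libraries were above all EVP libraries, and D overlapped with both. *Dusp2* was 4.71-fold higher in TA than in EVP (EVP over TA log2 fold change -2.52 ± 0.56 SE, adjusted p = 0.0171) and 3.20-fold higher in D than in EVP (-1.87 ± 0.56, adjusted p = 0.0233). The call between EVP and TA was lost without EVP replicate 3 (adjusted p = 0.0506), and the call between EVP and D without EVP replicate 2 or 3 or D replicate 3 or 4 (adjusted p of at most 0.0776).

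*Dusp5* (chr19:53529109-53542431), a nuclear phosphatase of ERK, had 63.2, 54.9, 249, 209 and 188 normalized counts in EVP, 102, 84.4, 299, 1095 and 158 in TA and 489, 802, 806, 541 and 218 in D. EVP replicate 3 and D replicate 5 overlapped. It was 3.74-fold higher in D than in EVP (log2 fold change, EVP over D, -2.01 ± 0.63 SE, adjusted p = 0.0318), which was not called by edgeR (-1.92, adjusted p = 0.0555), with no filter on low values (adjusted p = 0.0524) or without EVP replicate 1 or 2 or D replicate 2, 3 or 4 (adjusted p of at most 0.0919). Without TA replicate 4, the library at 1095, *Dusp5* was also called lower in TA than in D (-1.86, adjusted p = 0.0309). Antisense exons share 547 of its 2473 exonic bases. *Dusp1*, a nuclear phosphatase of JNK and p38, was not called in any comparison and ranged from 8638 to 30384 in EVP, 6465 to 22295 in TA and 11073 to 21154 in D.

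Levels of different genes were compared per transcript length, as TPM, in which recovered reads are divided by exon length and each library is scaled to the same sum. In EVP, *Gadd45g* was the highest member at 1936 ± 745 TPM (SD, n = 5), rank 43 among genes with a length. *Fos* followed at 1737 ± 1121 TPM, *Junb* at 1622 ± 727, *Dusp1* at 1141 ± 635 and *Jun* at 1010 ± 672. These neighbours differed by less than their spread. In D, *Hspa8* was highest at 1215 ± 110 TPM, then *Dusp1* at 838 ± 294 and *Ier2* at 627 ± 141, whereas *Gadd45g* was at 359 ± 106 TPM and *Fos* at 246 ± 86.8. The lowest in all populations was *Nr4a3*, at 1.99 ± 1.00 TPM in EVP, 4.17 ± 2.35 in TA and 0.983 ± 0.588 in D. *Egr2* was at 55.1 ± 17.2 TPM in EVP and 3.28 ± 2.83 in D, so the member with the highest fold change over all libraries was of intermediate level in EVP.

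**Figure D3:**
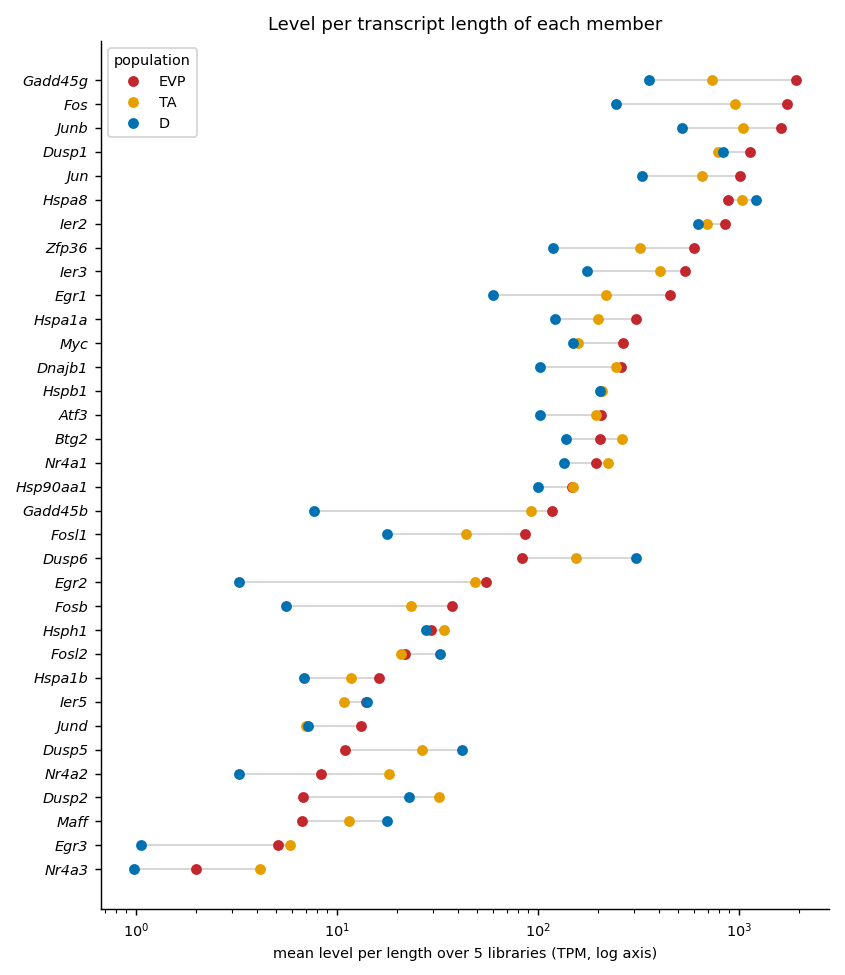
Mean level per transcript length (TPM, log axis) of each member in EVP, TA and D, over 5 libraries each, ordered by EVP. Grey lines join the lowest and highest population. *Gadd45g* was highest in EVP (1936 TPM) and *Nr4a3* lowest (1.99 TPM), and *Egr2* and *Gadd45b* had the widest distance between EVP and D.

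Of the 7 heat shock genes, 1 was called for EVP versus D, where 19.0% of all genes tested were called. None was called for EVP versus TA or TA versus D, where 3.50% and 12.5% of all genes were called. No heat shock gene was without overlap between populations, against 17.7% of all genes for EVP versus D, 4.29% for EVP versus TA and 9.25% for TA versus D. *Hsp90aa1* (chr12:110690605-110702728), the inducible cytosolic HSP90, had 4276, 2553, 2650, 4513 and 3958 normalized counts in EVP, 3149, 2784, 3399, 3454 and 3813 in TA and 2560, 1627, 1799, 2817 and 2288 in D. D replicates 1 and 4 lay within the range of EVP. The median log2 fold change for EVP over D was 0.46 over all genes and 0.19 over genes with a mean of at least 20. *Hsp90aa1* was 1.62-fold higher in EVP than in D (log2 fold change 0.68 ± 0.20 SE, adjusted p = 0.0190). This call was lost without EVP replicate 4 (adjusted p = 0.0601) or D replicate 2 (0.0629) or 3 (0.0547). TA over D was 0.60 ± 0.20 and not called (adjusted p = 0.0527), and it was called by DESeq2 (adjusted p = 0.0283) and without EVP replicate 1, 2 or 3 or D replicate 1 or 4 (adjusted p of 0.0399 to 0.04999).

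*Hspa1a* (chr17:34969190-34972156), the main inducible HSP70, had 2496, 1654, 2051, 17349 and 3031 normalized counts in EVP, 1120, 2201, 1083, 9667 and 1609 in TA and 2037, 1933, 1570, 3080 and 1537 in D. In each population the highest library was replicate 4, and without it the ranges of EVP, TA and D overlapped broadly. EVP over D was 0.79 ± 0.60 on the log2 scale, with a 95% confidence interval of -0.48 to 2.05. Exons of *Gm20481* on the opposite strand share 564 of the 2967 exonic bases of *Hspa1a*, so its counts are uncertain in this respect as well. *Hspa1b* had 816 normalized counts in EVP replicate 4 and 428 in TA replicate 4, against 78.4 to 178 and 46.5 to 186 in the other EVP and TA libraries and 68.3 to 153 in D.

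*Dnajb1* (chr8:83608193-83612653), the HSP40 co-chaperone of HSP70, had 3149, 2686, 2482, 14357 and 1870 normalized counts in EVP, 2739, 5369, 2105, 9555 and 1801 in TA and 2306, 1634, 1954, 1713 and 1718 in D. Replicate 4 again stood above the others in EVP and TA, but not in D. EVP over D was 0.94 ± 0.49 (adjusted p = 0.232). *Hspb1* (chr5:135887919-135889563), the small heat shock protein HSP25, had 909, 703, 830, 2990 and 857 normalized counts in EVP, 1410, 2256, 1084, 881 and 659 in TA and 1496, 1133, 1093, 1416 and 866 in D. Here EVP replicate 4 was high, and TA replicate 4 was not.

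*Hsph1*, the HSP110 nucleotide exchange factor, ranged from 935 to 1973 in EVP, 811 to 2341 in TA and 892 to 1889 in D. The constitutive HSP70 gene *Hspa8* ranged from 17798 to 34339, 19189 to 36328 and 25791 to 37356. *Hspa8* was not called between EVP and D (log2 fold change -0.40 ± 0.19 SE, adjusted p = 0.180), and without EVP replicate 4 it was called lower in EVP (-0.55, adjusted p = 0.0355). Between EVP and TA limma and edgeR each called 0 of the 7 genes, where limma called 3.50% of all genes. DESeq2, which gave no adjusted p for *Hspa1a* in any comparison, also called 0. An unadjusted p under 0.05 in limma was found for 0 of the 7, against 3962 of the 25549 genes tested. Between TA and D limma and edgeR called 0 and DESeq2 called 1, *Hsp90aa1*, where limma called 12.5% of all genes. *Hsp90aa1* alone had an unadjusted p under 0.05 in limma, against 6009 of the 25549 genes tested. The widest 95% confidence intervals were those of *Hspa1b*, -0.57 to 2.02 for EVP over D and -0.90 to 1.68 for TA over D.

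**Figure D4:**
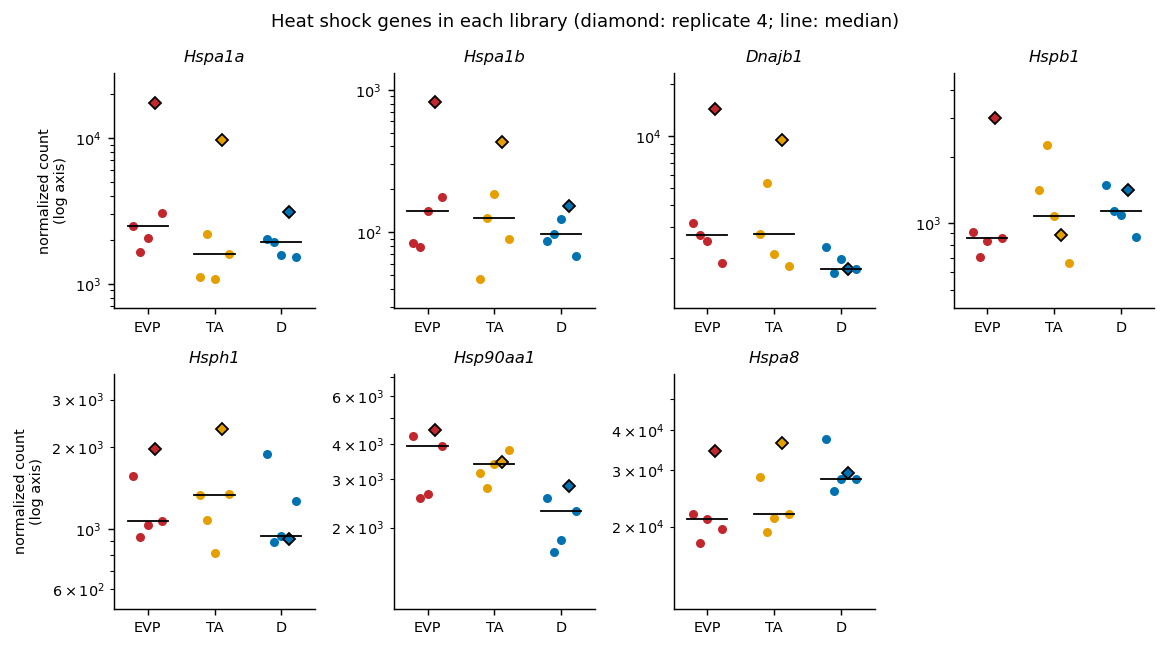
Normalized counts (log axis) of the 7 heat shock genes in each of the 5 libraries of EVP, TA and D. Points are libraries, diamonds are replicate 4 and lines are medians. *Hspa1a* reached 17349 in EVP replicate 4 and 9667 in TA replicate 4, against at most 3080 in D.

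Within populations, replicate 4 was often the highest library. EVP replicate 4 was the highest EVP library for 18 of 27 immediate early genes and for 7 of 7 heat shock genes, TA replicate 4 the highest TA library for 14 and 5, and D replicate 4 the highest D library for 12 and 3. For heat shock genes in D, replicate 1 was highest more often, for 4 of 7, and TA replicate 2 was the highest TA library for 10 immediate early genes. The exceptions among genes higher in EVP than in D included *Fosl1*, which was lowest in replicate 4 of each population. EVP replicate 4 was not shallow, with 22351509 reads, and its marker sums lay within the range of the other EVP libraries for fibroblast, pan-endothelial, mural, leukocyte, melanoma, keratinocyte and erythroid markers, whereas TA replicate 4 had the highest leukocyte marker sum of its population (42406). When replicate 4 was left out of all populations, an alternative chosen after seeing the data, the number of immediate early genes called higher in EVP than in D was again 13, that of genes called higher in TA than in D was 8 instead of 11, and *Hsp90aa1* was no longer called (adjusted p = 0.0517). In the same fit *Hspa8* was called lower in EVP than in D (-0.56, adjusted p = 0.0265). The calls of *Myc* (adjusted p = 0.162) and *Dusp6* (0.124) between EVP and TA were lost, as was that of *Dusp6* between TA and D (0.0916).

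The pooled SD of log2 values within populations was 1.502 for *Egr2*, 1.34 for *Nr4a2*, 1.13 for *Dusp5* and 1.11 for *Hspa1a*, and 0.28 for *Myc*, 0.31 for *Hsp90aa1* and 0.32 for *Hspa8*. Its median was 0.66 for immediate early and 0.65 for heat shock genes, against 1.22 over all genes tested, many of which have low counts. Among tested genes of like mean level, the percentile of this SD was 22.4 for *Jund*, 25.2 for *Maff* and 30.5 for *Egr3*. It was 32.5 for *Hspa8*, 38.6 for *Nr4a3*, 41.4 for *Myc* and 41.7 for *Ier5*. All other members were higher, from 54.8 for *Hsp90aa1* to 98.4 for *Hspa1a*. After subtraction of population means, Pearson correlations over the 15 libraries, which share depth and amplification, were highest for *Atf3* with *Zfp36* (0.948), *Egr1* with *Zfp36* (0.935), *Fos* with *Atf3* (0.933) and *Fos* with *Zfp36* (0.927). These remained at 0.870 to 0.922 over the 12 libraries without replicate 4. *Hspa1a* with *Dnajb1* gave 0.869 and *Hspa1a* with *Hspa1b* 0.866, and these fell to 0.344 and 0.296 without replicate 4, so that they rested on those libraries. *Dnajb1* with *Atf3* held (0.889 and 0.902). These pairs were not typical of all. The median over the 351 pairs of immediate early genes was 0.237 (-0.58 to 0.948), that within heat shock genes was 0.528 and that between the groups 0.392, and without replicate 4 they were 0.155, 0.161 and 0.117.

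**Figure D5:**
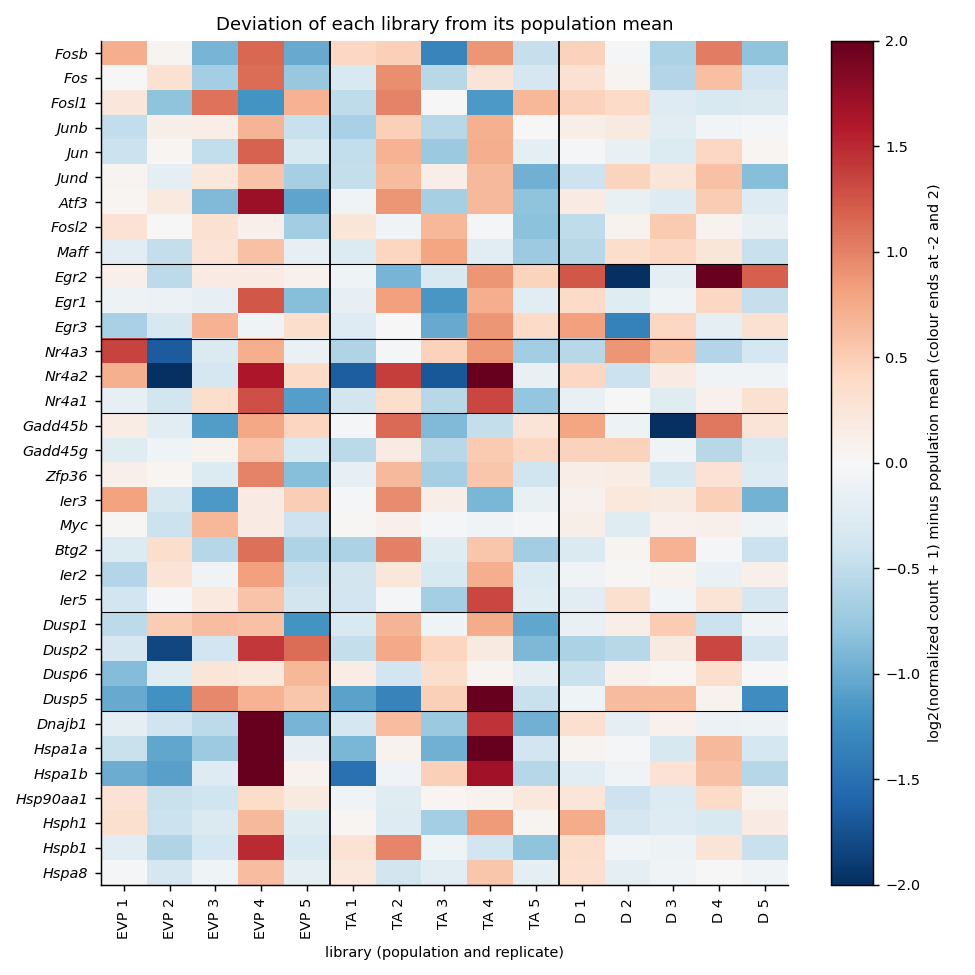
Deviation of each library (horizontal axis) from the mean of its population, in log2(normalized count + 1), for each member (vertical axis, same groups and order as in the plot of fold changes). Colours end at -2 and 2. EVP replicate 4 was the highest EVP library for 18 of 27 immediate early and 7 of 7 heat shock genes, and TA replicate 4 was the highest TA library for 14 and 5.

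Other genes of these pathways came from lists chosen by function. Of 16 upstream transcription factors and kinases, 1 was higher in EVP than in D and 4 were higher in D, against 11.6% and 7.46% of all genes. Their median log2 fold change was 0.09, against 0.46 for all genes and 0.19 for genes with a mean of at least 20. *Elk3*, a ternary complex factor, was 6.32-fold higher in D than in EVP (578 ± 64.8 against 3656 ± 988, adjusted p = 1.69e-06), and its relative *Elk1* was 1.81-fold higher in EVP (adjusted p = 0.0417), which edgeR did not call. Between TA and D, 0 were higher in TA by limma, edgeR and DESeq2 and 4 were higher in D by limma (8.21% and 4.31% of all genes). Among these 4 were *Mapk3* (ERK1), by 2.25-fold (adjusted p = 0.000580), and *Rps6ka3* (RSK2), by 2.05-fold (adjusted p = 0.0314, not called by edgeR). An unadjusted p under 0.05 in limma was found for 6 of the 16, against 6009 of the 25549 genes tested. Between EVP and TA limma called 0 of 16, where it called 3.50% of all genes. Of the 16, 4 had an unadjusted p under 0.05 in limma, against 3962 of all genes tested. EdgeR and DESeq2 each called 1, *Elk3*, higher in TA.

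Of 41 other immediate early genes tested, 10 were higher in EVP than in D and 4 were higher in D, against 11.6% and 7.46% of all genes. Their median log2 fold change was 0.31, against 0.46 for all genes and 0.19 for genes with a mean of at least 20. *Errfi1*, a feedback inhibitor of EGF receptor signaling, was 10.99-fold higher in EVP than in D (12987 ± 4353 against 1182 ± 191, adjusted p = 1.88e-08), 2.59-fold higher than in TA (adjusted p = 0.00497) and, in TA, 4.25-fold higher than in D (adjusted p = 1.92e-05). With the highest adjusted p among calls, *Nfkbia*, the inhibitor of NF-kB, was 1.92-fold higher in EVP than in D (adjusted p = 0.0423), *Nfkbiz* 2.13-fold higher in EVP than in TA (adjusted p = 0.0471) and *Cebpb* 4.11-fold higher in TA than in D (adjusted p = 0.0449). *Plk2* went the other way, 13.4-fold higher in D than in EVP (26198 ± 9242 against 1961 ± 675, adjusted p = 4.51e-06). It was 3.47-fold higher in D than in TA (adjusted p = 0.00398) and 3.85-fold higher in TA than in EVP (adjusted p = 0.0337). *Klf10*, *Rhob* and *Dusp8* were also called higher in D than in EVP. The phosphatase gene *Dusp10* was 12.5-fold higher in EVP than in D (adjusted p = 0.000297) and 9.24-fold higher in TA than in D (adjusted p = 0.00349). *Dusp14* was 2.38-fold higher in EVP than in D (adjusted p = 0.0407). Between EVP and TA 4 were higher in EVP and 1 in TA (1.56% and 1.94% of all genes), and between TA and D 6 were higher in TA and 4 in D (8.21% and 4.31%).

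Of 37 other chaperones and heat shock regulators, 12 were higher in EVP than in D and 2 were higher in D, against 11.6% and 7.46% of all genes. Their median log2 fold change was 0.17, against 0.46 for all genes and 0.19 for genes with a mean of at least 20. *Cryab*, the small heat shock protein alpha B-crystallin, was 7.74-fold higher in EVP than in D (1466 ± 468 against 189 ± 58.1, adjusted p = 2.45e-07) and 7.60-fold higher in TA than in D (adjusted p = 5.97e-07), and *Serpinh1*, the collagen chaperone HSP47, was 1.71-fold higher in EVP than in D (adjusted p = 0.0497). Between TA and D 7 were higher in TA and 1 in D (8.21% and 4.31% of all genes), the latter *Hspa12b*, which was 3.02-fold higher in D (adjusted p = 0.0109). Between EVP and TA *Hsf2*, a heat shock transcription factor, was the only call by limma, 2.29-fold higher in EVP (adjusted p = 0.0244), where 1.56% of all genes were called higher in EVP and 1.94% in TA.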

How the data were processed

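RNA was sequenced in 15 libraries, 5 each of EVP, TA and D. The authors prepared libraries with a modified Smart-Seq2 protocol and, per the labels and methods, used bcl2fastq 2.17, aligned reads with STAR 2.5.3a to GRCm38, counted them per Ensembl gene with HTSeq-count and normalized counts with DESeq2 1.10.1. The values deposited by the authors are a signal, the counts of each gene divided by the size factor of its library. Within 0.01, 100% of them were whole multiples of the value of 1 read, so reads were recovered, 5394356 to 26513073 per library. The number of reads limits the precision of low genes. The authors also deposited their own comparisons (fold changes and p-values), which were not used.

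Log2(normalized count + 1) was fitted with limma 3.58.1 (R 4.3.3), with populations as coefficients and a variance trend, over the 25549 genes whose mean reached 5, and calls were two-sided at an adjusted p under 0.05 (Benjamini-Hochberg, all genes tested). Fold changes on this scale understate the change of low genes. Folds in the text are ratios of mean normalized counts, and values after ± are SE for log2 fold changes and SD otherwise. The fit was tested on simulated data. Alternatives were pseudocounts of 0.5 and 8, no filter, a minimum mean of 20, scaling to the same total, quantile normalization, edgeR 4.0.16 and DESeq2 1.42.0 on recovered reads, a replicate block and leaving out each library. Leaving out replicate 1 or replicate 4 of all populations was added after seeing the data. Coordinates and exon lengths were read from the GRCm38 annotation, which matched 99.8% of genes, and promoters from RefSeq.

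Members and lists were chosen with earlier results of these data known. All members are named, those called or without overlap in at least 1 comparison library by library and the others by range, and *Hspa1a*, *Dnajb1* and *Hspb1* were added to the former for their high libraries. Of the 3 further lists, the called genes with the lowest and highest adjusted p in each comparison are named. *Plk2*, *Klf10*, *Rhob* and *Dusp8* were added because they were called higher in D than in EVP, and *Dusp10* and *Dusp14* as phosphatase genes called higher in EVP than in D.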

Additional observations from a re-analysis of the deposited data

Results flagged for a closer look

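Of 102 sets of 5 libraries (34 genes in 3 populations), 5 held a library whose gap to its nearest neighbour, divided by the range of the set, exceeded Dixon's critical value of 0.71, which chance alone exceeds in about 1 of 20 sets. *Hspa1a* was 17349 normalized counts in EVP replicate 4, against 1654 to 3031 in the other EVP libraries. *Dnajb1* was 14357 in the same library, against 1870 to 3149, and *Hspb1* 2990, against 703 to 909. *Egr2* was low in EVP replicate 2, at 772 against 1179 to 1245. *Ier3* was low in D replicate 5, at 551 against 1126 to 1469.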

How the results depend on the processing

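Of the 17 immediate early calls between EVP and D, 14 held in every alternative run; of the 12 between TA and D, 6 did (*Fos*, *Fosb*, *Egr1*, *Egr2*, *Zfp36* and *Gadd45b*), and of the 4 between EVP and TA, *Gadd45g* did. Between EVP and TA, immediate early genes higher in TA were 1 instead of 2 with no filter and with edgeR, and those higher in EVP were 1 instead of 2 after scaling to the same total and 4 with DESeq2, which called 1961 genes in all against 893. Between TA and D, *Hsp90aa1* was called with a minimum mean of 20, the same total, quantile normalization and DESeq2 (1 heat shock gene each), and quantile normalization called 2117 genes in all against 3199. On recovered reads edgeR called 4425 genes for EVP over D, 891 for EVP over TA and 3045 for TA over D, and DESeq2 5732, 1961 and 4422. The cause of these differences was not tested.

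Same-numbered libraries deviated together for most but not all pairs (correlations of 0.059 to 0.689 for EVP and D, -0.14 to 0.603 for EVP and TA and -0.0042 to 0.491 for TA and D). In each comparison 4 of 5 were highest with the own number. Erythroid marker sums fell from replicate 1 to replicate 5 in every population (12082 to 18.7 in EVP, 15271 to 3.74 in TA and 8465 to 70.1 in D). The labels state no pairing, so the main fit has no term for the replicate number. Its p-values and the correlations between genes therefore treat same-numbered libraries as independent. With the replicate block, calls rose from 4859, 893 and 3199 to 5710, 1262 and 4047, immediate early genes higher in EVP than in TA were 5 (*Fos*, *Egr1* and *Zfp36* in addition), *Jund* was called between EVP and D and *Jun* between TA and D, *Ier3* was lost between TA and D, and 1 heat shock gene was called higher in D than in EVP (*Hspa8*) and 1 in TA than in D (*Hsp90aa1*).

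Without single libraries, or without replicate 1 or 4 throughout, genes called were 283 to 1209 between EVP and TA and 1991 to 4397 between TA and D. The former was 428 without EVP replicate 2, 471 without EVP replicate 3, 568 without TA replicate 3, 522 without replicate 1 and 283 without replicate 4 throughout, which also gave the 1991. Immediate early genes higher in D than in EVP were 2 to 4, higher in EVP than in TA 1 to 3, higher in TA than in EVP 0 to 2 and higher in D than in TA 0 to 3. Heat shock genes higher in EVP than in D, higher in D than in EVP and higher in TA than in D were 0 to 1 each.

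Sign changes (75 values) were seen for 20 results, none of them called under either setting. With the same total, log2 fold changes were -0.045 for *Ier5* (EVP over D), -0.10 for *Hsp90aa1* and -0.16 for *Dnajb1* (EVP over TA), and 0.048 for *Jund* and 0.034 for *Hspb1* (TA over D). Quantile normalization gave -0.32 for *Ier5* and -0.20 for *Hspa1b* (EVP over D), -0.0028 for *Hsp90aa1* and -0.093 for *Dnajb1* (EVP over TA), and 0.008 for *Dusp1*, -0.30 for *Hspa1b* and 0.029 for *Hspb1* (TA over D). *Hspb1* gave 0.020 (EVP over D) and 0.035 (TA over D) with edgeR and 0.068, 0.0013 (EVP over TA) and 0.067 with DESeq2, *Atf3* 0.14 and 0.17 (EVP over TA), and *Jund* 0.012 (TA over D, DESeq2). Without libraries, EVP over D ranged from -0.52 to 0.0015 for *Hspb1*, -0.079 to 0.16 for *Ier5* and -0.076 to 0.34 for *Hsph1*. EVP over TA ranged from -0.33 to 0.16 for *Egr3*, -0.58 to 0.13 for *Hspb1*, -0.21 to 0.17 for *Hsph1*, -0.47 to 0.22 for *Atf3*, -0.23 to 0.75 for *Hspa1b*, -0.013 to 0.19 for *Hsp90aa1*, -0.49 to 0.38 for *Dnajb1*, -0.42 to 0.24 for *Nr4a1* and -0.011 to 0.37 for *Fosl2*. TA over D ranged from -0.23 to 0.22 for *Jund*, -0.13 to 0.17 for *Ier2*, -0.45 to 0.34 for *Hspa1a*, -0.028 to 0.77 for *Hspa1b*, -0.28 to 0.16 for *Hspb1*, -0.087 to 0.38 for *Hsph1* and -0.46 to 0.092 for *Dusp1*.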
